A study of Homo sapiens with 12 samples.

Results

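The 2 drugs decitabine and triptolide were given to DU145 cells in a crossed design of 4 groups, and the quantity described here is their interaction, that is, how far the RNA difference made by decitabine depended on triptolide. For each gene it was (DACTPL minus TPL) minus (DAC minus Ctrl) on the log2 scale, where 0 means that both differences simply add and so their fold changes multiply. All 12 of the 12 libraries of the series entered, 3 in each group, and the 15890 of 26341 listed genes that passed a filter on low counts were tested. DU145 is an established line from a prostate cancer that had spread to the central nervous system. Ctrl cells had neither drug, TPL cells had 2 nM triptolide, DAC cells had 33 nM decitabine and DACTPL cells had both. Drug was added once a day for 3 days, and RNA was taken after a further 17 days without drug, on day 20. For DACTPL the sample characteristics give 33 nM decitabine and the treatment protocol gives 3 nM, so the dose in that group is not settled and an interaction could not be told apart from a difference in dose. The labels do not say whether the 3 libraries of a group were separate cultures, so p-values measure the spread between these libraries only.

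Decitabine, an analogue of deoxycytidine, enters DNA during replication and traps DNA methyltransferases there, and genes silenced by methylation of CpG sites can be expressed again after the drug is gone. Triptolide binds ERCC3, the helicase of the general transcription factor TFIIH, and blocks the start of transcription by RNA polymerase II, so RNAs with short half-lives are lost first while the drug is present. DCTPP1, named in the title of the study, hydrolyses modified deoxycytidine triphosphates, among them that of decitabine, and the title states that triptolide sensitizes cells to such analogues by inhibiting it.

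Libraries held 26.4 to 47 M expected counts. The epithelial markers that define the line were present in all 12, with 3517 to 5862 counts of EPCAM and 18091 to 37850 of KRT8. Of the 10 blood markers, 5 passed the filter: CD68 at 868 to 1769 counts, CD74 at 518 to 1173, LYZ at 85 to 238, CD14 at 54 to 93 and PTPRC at 3 to 26, while HBA1 and HBB were at 0 in all libraries and CD3E had at most 1 count. Libraries of 1 group differed by gene length. The Spearman correlation of a gene's log2 deviation from its mean over libraries with its relative length, over 14051 coding genes, was 0.17 to 0.24 (Ctrl), -0.39, -0.38 and 0.17 (TPL), -0.21, -0.31 and 0.08 (DAC) and -0.20, 0.29 and 0.22 (DACTPL). TPL 3, DAC 3, DACTPL 2 and DACTPL 3 thus had the sign of Ctrl. Small structural RNAs made up 2.09% to 2.36% of the counts (Ctrl), 3.40% to 4.56% (TPL), 2.73% to 2.90% (DAC) and 2.91% to 3.41% (DACTPL).

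Without a correction, the interaction followed gene length. In the shortest decile of coding genes the median log2 interaction was -0.23, and 34.1% of those genes lay below 0 at an unadjusted p under 0.05. In the longest decile the median was 0.20, and 22.1% lay above 0 at that p. The Spearman correlation of interaction with relative length was 0.52 over the 14051 coding genes. The differences between single groups ran in the same way: the median log2 difference of the shortest decile was 0.15 for TPL vs Ctrl and 0.14 for DAC vs Ctrl, against -0.07 for DACTPL vs DAC and -0.10 for DACTPL vs TPL. After the trend on length was taken off within each library, the medians of all 10 deciles lay between -0.02 and 0.00 and the correlation was -0.01. Values called length-adjusted come from that second fit. In bulk samples a change in the mix of cells and a change of RNA per cell cannot be told apart.

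**Figure D1:**
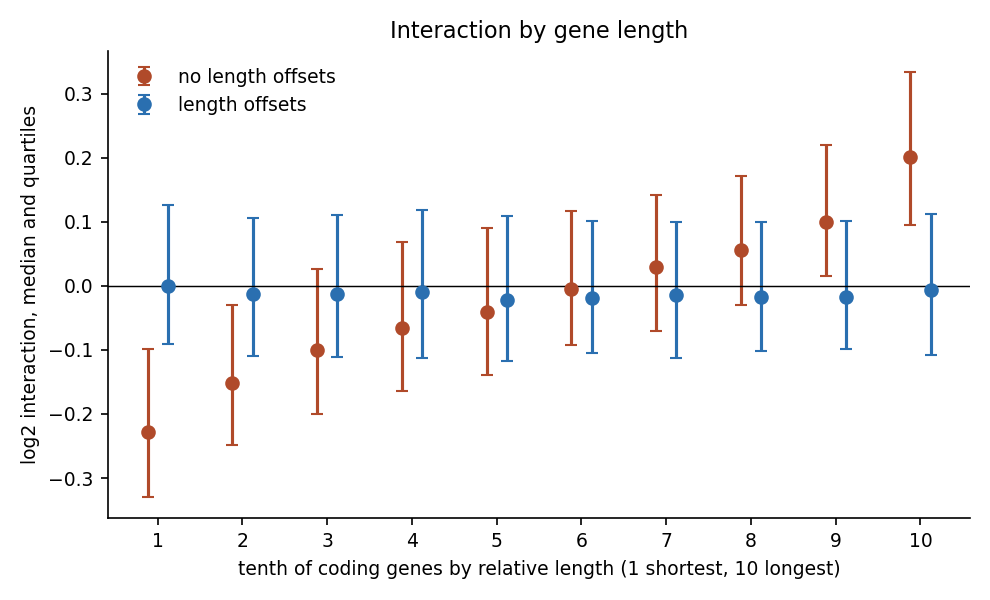
Median and quartiles of the log2 interaction (vertical axis) in each decile of 14051 coding genes by relative length (horizontal axis, shortest to longest), without and with length offsets. Without offsets the medians rise from -0.23 to 0.20, and with offsets they lie between -0.02 and 0.00.

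Groups of short genes moved with that trend. Of 81 ribosomal protein genes, which build the cytosolic ribosome, all had an interaction below or at 0, with a median of -0.29, and 49 lay below 0 at an unadjusted p under 0.05. After length adjustment the median was -0.04 and 9 lay below at that p. Of 71 genes of oxidative phosphorylation, the subunits of the respiratory chain and ATP synthase, 44 lay below 0 at that p and the median was -0.30, against 8 and -0.07 after adjustment. Of 61 replication-dependent histone genes, whose short RNAs end in a stem-loop in place of a poly(A) tail, 26 lay below and the median was -0.33, against 2 and -0.03. No member of these 3 lists passed edgeR's test for the interaction in either fit (DESeq2 called 6, 4 and 0 without offsets and 2, 0 and 0 with them), where 0.00629% of all genes tested were called without offsets and 0.0189% after length adjustment. By comparison 8.02% of all genes lay below 0 at the unadjusted p without offsets and 4.25% after adjustment. RPS3A, a protein of the small ribosomal subunit chosen here after its values were seen, was among those below 0 after adjustment. On the scale of CPM, counts scaled to library size, it stood at 455, 484 and 454 (Ctrl), 876, 952 and 616 (TPL), 631, 594 and 487 (DAC) and 606, 544 and 534 (DACTPL). TPL 1 and TPL 2 were highest and TPL 3 lay within the range of DAC, and the length-adjusted log2 interaction was -0.60 (SE 0.14, adjusted p = 0.185, edgeR). Without TPL replicate 3 the adjusted p was 0.0125, and by DESeq2 with all libraries it was 0.0216.

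Across the transcriptome few genes departed from additivity beyond the spread between libraries. By edgeR's quasi-likelihood test with Benjamini-Hochberg adjustment over all 15890 genes, 1 gene was called without offsets (0.00629%) and 3 entries were called after length adjustment (0.0189%). Of these, 2 entries lay below 0 (0.0126%) and the remaining one above it. They stand for 2 RNAs, since SCARNA10 was listed a second time under its older name U85 with the same counts. At an unadjusted p under 0.05 there were 2545 genes without offsets (16.0%, 1271 above and 1274 below 0) and 1691 after adjustment (10.6%, with 1015 or 6.39% above and 676 or 4.25% below). DESeq2 called 120 and 66. The count rested on single libraries: leaving out TPL replicate 3 gave 950 calls without offsets and 83 with them, leaving out Ctrl replicate 3 gave 14 in both fits, leaving out DACTPL replicate 2 gave 9 and 0, and leaving out any other library gave 0 in both. The same design called 2704 genes for the mean decitabine effect (17.0%, 10.4% higher and 6.64% lower) and 3006 after length adjustment (18.9%, 11.4% higher and 7.48% lower). For the mean triptolide effect it called 202 (1.27%, 0.919% higher and 0.352% lower) and 189 after adjustment (1.19%, 0.78% higher and 0.409% lower). The triptolide count of 202 also rested on single libraries, with 33 to 132 calls when Ctrl 1, Ctrl 2, TPL 1, TPL 2, DAC 1, DAC 2 or any DACTPL library was left out, 312 without TPL replicate 3, 446 without DAC replicate 3 and 704 without Ctrl replicate 3.

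**Figure D2:**
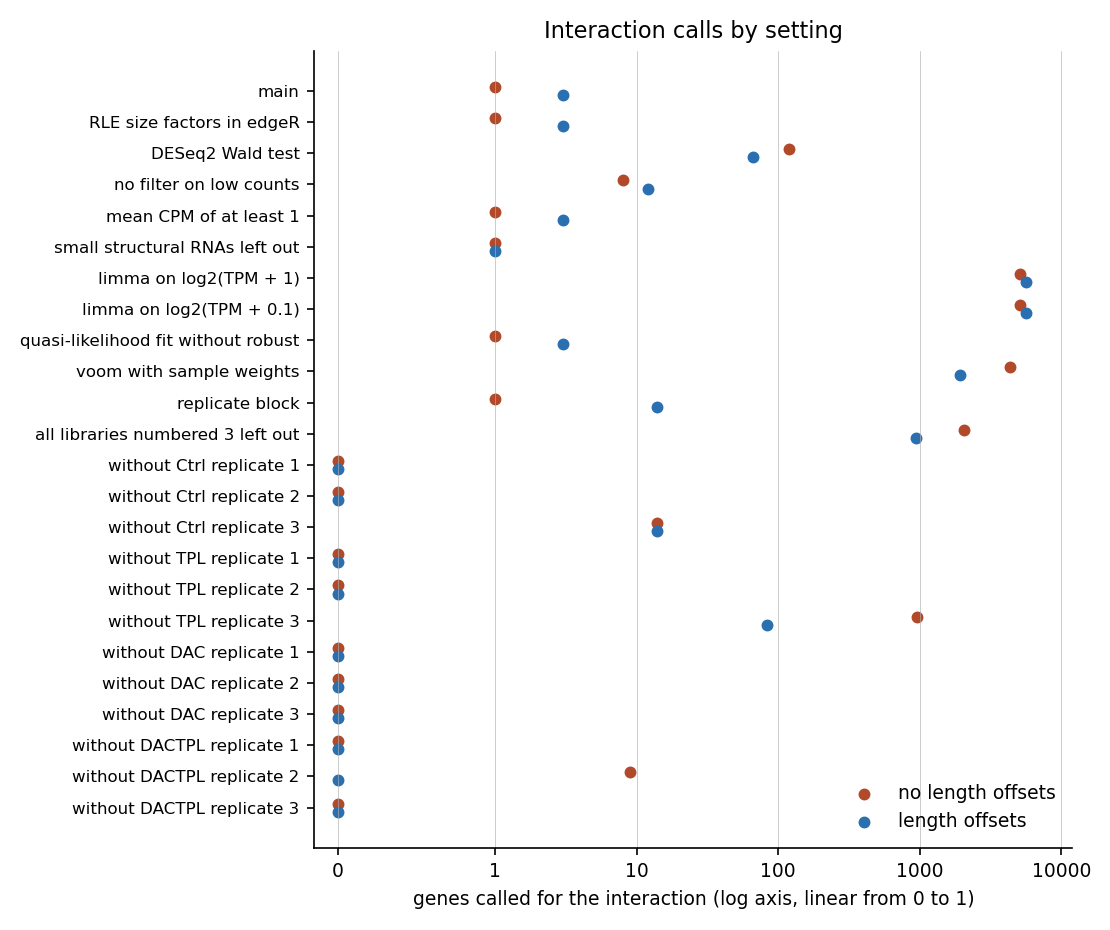
Number of genes called for the interaction (horizontal log axis, linear between 0 and 1) under each setting (vertical axis), without and with length offsets. With all libraries 1 and 3 entries are called, 9 of 12 fits that leave out 1 library call 0 without offsets, and the fit without TPL replicate 3 calls 950 and 83.

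EYA4-AS1 was called in both fits. It is a long noncoding RNA read antisense to the EYA4 gene on chromosome 6, now named TARID, and it is known for directing demethylation of the promoter of the neighbouring gene TCF21 through GADD45A and the base excision enzyme TDG. Its RefSeq promoter (GRCh38.p14, minus strand, chr6:133888957-133889256, 250 bases before to 50 after the start) is printed with CG in capitals, because CpG is the site that decitabine affects.
EYA4-AS1: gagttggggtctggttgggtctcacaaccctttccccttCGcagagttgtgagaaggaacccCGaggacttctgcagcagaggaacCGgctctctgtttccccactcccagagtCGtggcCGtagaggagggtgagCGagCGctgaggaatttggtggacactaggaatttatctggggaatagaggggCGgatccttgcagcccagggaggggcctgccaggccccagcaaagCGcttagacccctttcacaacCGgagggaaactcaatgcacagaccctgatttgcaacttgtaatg
It held 10 CG, and 56.4% of the 35116 promoters of the same length in the RefSeq table held at least as many. The level of EYA4-AS1 was 27.0, 26.9 and 23.0 CPM (Ctrl), 15.6, 17.5 and 16.9 (TPL), 15.5, 15.5 and 15.6 (DAC) and 18.9, 17.4 and 18.4 (DACTPL). All 3 Ctrl libraries lay above all other libraries, and the 3 treated groups lay close together. The RNA fell by 0.62 on the log2 scale in TPL vs Ctrl (adjusted p = 0.00459, where 2.47% of all genes were called) and by 0.72 in DAC vs Ctrl (adjusted p = 4.72e-05, 9.86% called), both by edgeR. In turn DACTPL differed from TPL by 0.13 (adjusted p = 0.318) and from DAC by 0.23 (adjusted p = 0.275). Additive log2 differences would have put DACTPL at 10.1 CPM, and its mean was 18.2. The log2 interaction was 0.85 (SE 0.11, 95% interval 0.62 to 1.07, adjusted p = 0.0391, edgeR), and 0.84 after length adjustment (adjusted p = 0.0279). Its sign was the same in all 24 alternatives, but with 1 library left out the call was kept in 3 of 12 fits without offsets and in 2 of 12 with them. GADD45A and TDG, the former chosen after its values were seen, had interactions of -0.23 (adjusted p = 0.240) and 0.00 (adjusted p = 0.991) without offsets. Antisense and sense reads can be told apart only where the strand was used in counting, which was not given in the sources used here.

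SCARNA10 was called after length adjustment, in the other direction. It is a small Cajal body RNA with both a C/D and an H/ACA part, known for guiding modification of the U5 spliceosomal RNA. SCARNA5, a small Cajal body RNA of the same mixed type, was not called by edgeR, and was called by DESeq2 in both fits (adjusted p = 2.24e-07 and 0.000484). The first 200 bases of SCARNA5 (GENCODE 29 transcript, matched by symbol, sense strand) are printed to show an RNA of this type, with the C box letters TGATGA in capitals.
SCARNA5: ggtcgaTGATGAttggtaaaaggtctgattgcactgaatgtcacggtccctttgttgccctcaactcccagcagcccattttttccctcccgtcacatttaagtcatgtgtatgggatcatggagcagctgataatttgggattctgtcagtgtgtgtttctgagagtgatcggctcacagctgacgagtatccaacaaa
SCARNA5 held TGATGA 1 time in the whole RNA, close to the 5′ end. The motif was held by 35.6% of 1004 snoRNA and scaRNA transcripts and, on the strand read into RNA, by 5.9% of promoters of 300 bases. SCARNA10 stood at 94.4, 99.7 and 106 CPM (Ctrl), 252, 276 and 188 (TPL), 153, 141 and 130 (DAC) and 162, 157 and 146 (DACTPL). The TPL libraries were all above the rest and the Ctrl libraries all below, with DAC and DACTPL overlapping. It rose by 1.02 on the log2 scale in TPL vs Ctrl after length adjustment (adjusted p = 5e-05, edgeR), while it fell by 0.46 in DACTPL vs TPL (adjusted p = 0.00166, and 10.5% of genes called without offsets). The log2 interaction was -1.12 without offsets (SE 0.16, adjusted p = 0.0585) and -0.79 with them (SE 0.11, 95% interval -1.03 to -0.56, adjusted p = 0.0316). With 1 library left out it was called in 2 of 12 length-adjusted fits, with values from -0.88 to -0.73. Its relative length of 0.07 was far below the shortest decile of coding genes (median 0.29), so the trend there was held at its end value.

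Other short noncoding RNAs, chosen after their values were seen, had a like order of levels and were not called by edgeR with all libraries. DESeq2 called them after length adjustment, at adjusted p = 3.4e-05 for RPPH1, 0.000484 for SCARNA5 and 0.00235 for SNORA53. Without TPL replicate 3, edgeR's adjusted p was 0.0125 for RPPH1 and 0.0479 for SCARNA5 after length adjustment. RPPH1, the catalytic RNA of ribonuclease P, which trims tRNA precursors, was at 10300, 10900 and 12600 CPM (Ctrl), 29300, 31300 and 21800 (TPL), 15700, 16900 and 15400 (DAC) and 18000, 19200 and 16500 (DACTPL). Its 3 TPL libraries lay above all others, and the length-adjusted log2 interaction was -0.79 (SE 0.13, adjusted p = 0.0739, edgeR). SCARNA5 averaged 15.8, 43.6, 19.4 and 22.7 CPM in Ctrl, TPL, DAC and DACTPL, with an interaction of -0.91 (adjusted p = 0.103). SNORA53, an H/ACA small nucleolar RNA, averaged 16.3, 41.3, 22.2 and 22.1 CPM, with -1.02 (adjusted p = 0.161). Over all 107 small structural RNAs tested, the median interaction was -0.36 without offsets, with 40.2% below 0 at an unadjusted p under 0.05, and -0.05 after length adjustment, with 18.7% below. In the second fit the median per library, as log2 deviation from the mean of 12, was -0.11 to -0.06 (Ctrl), 0.23 to 0.34 (TPL), -0.32 to -0.09 (DAC) and -0.16, 0.32 and 0.06 (DACTPL). The DACTPL libraries therefore spread over most of the range of the other groups. The share of small structural RNA among all counts did not follow these medians throughout. Both were high in TPL and in DACTPL 2. In DAC the share was 2.73% to 2.90%, above the 2.09% to 2.36% of Ctrl, while the DAC medians reached lower than those of Ctrl. The part of the share in the medians was not tested.

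**Figure D3:**
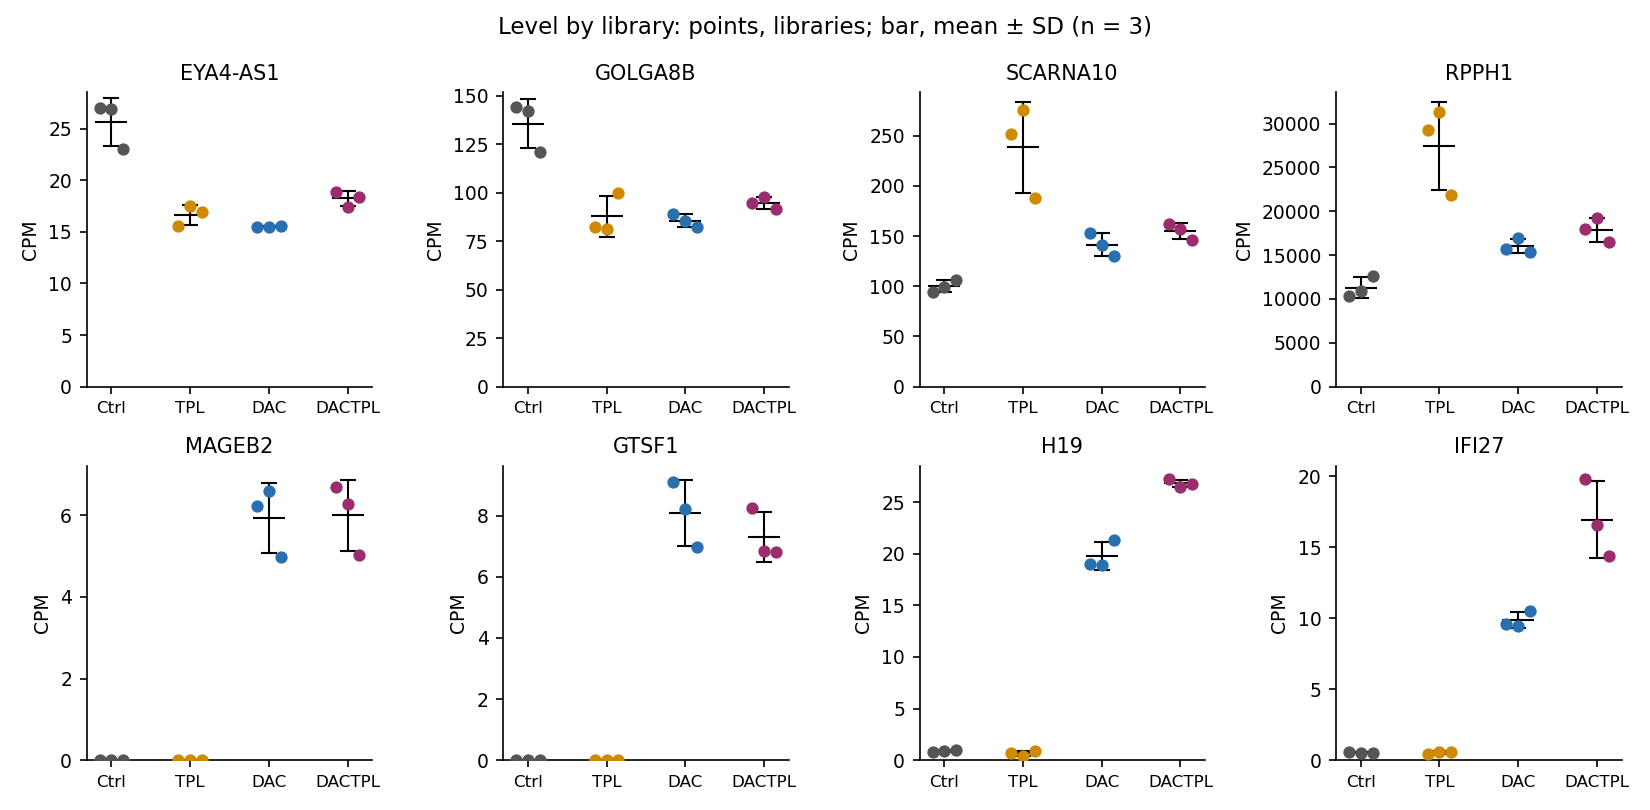
Level in CPM (vertical axes) of 8 RNAs in each library (points), with mean and SD of 3 libraries (bars), by group (horizontal axes). EYA4-AS1 and GOLGA8B are highest in Ctrl, SCARNA10 and RPPH1 are highest in TPL, MAGEB2 and GTSF1 have 0 counts in Ctrl and TPL, and H19 and IFI27 are highest in DACTPL.

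The next genes by p after adjustment, at an adjusted p of 0.0689 (edgeR) and chosen here after their values were seen, also had their highest means in Ctrl. Later in that order RPPH1 was highest in TPL. DKFZP434L187 and GLUD1P3 (both adjusted p = 0.082, edgeR) were highest in DACTPL, at 1.16 CPM against 1.10 in Ctrl and 2.94 against 2.76. GOLGA8B, a golgin-like gene of a duplicated family on chromosome 15, was at 144, 142 and 121 CPM (Ctrl), 82.1, 81.3 and 99.9 (TPL), 89.1, 85.3 and 82.3 (DAC) and 94.9, 97.8 and 91.7 (DACTPL). All Ctrl libraries were above all treated ones, and the length-adjusted log2 interaction was 0.64 (SE 0.10, adjusted p = 0.0689, edgeR). CCNL2, a cyclin associated with pre-mRNA splicing, averaged 75.5, 60.8, 59.7 and 64.5 CPM in Ctrl, TPL, DAC and DACTPL, with an interaction of 0.50 (adjusted p = 0.0689). The transcribed pseudogenes RRP7B and AHSA2 had 0.78 and 0.62, and CCDC144A had 0.69, each at an adjusted p of 0.0689. LIF, a cytokine of the interleukin-6 family, averaged 89.8, 68.8, 76.4 and 79.7 CPM, with 0.39 (adjusted p = 0.185). LIF was not next in order but was chosen after its values were seen. DESeq2 called GOLGA8B, CCNL2, RRP7B, AHSA2, CCDC144A and LIF after length adjustment, at adjusted p from 5.44e-05 for CCNL2 to 0.0492 for LIF. Without TPL replicate 3, edgeR called all of them but LIF, at adjusted p from 0.0196 for GOLGA8B to 0.0414 for AHSA2. Members of duplicated families and pseudogenes share reads with near-identical copies, so their levels are uncertain. Of the 1015 genes above 0 at an unadjusted p under 0.05, 577 had their highest mean in Ctrl and 416 in DACTPL. Their lowest mean was in TPL for 541 and in DAC for 444. The contrast adds Ctrl and DACTPL and subtracts TPL and DAC, so genes chosen above 0 largely take this order. These counts only describe the genes and lend no support to the pattern.

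The interaction was described next by RNA class. Of 1179 long noncoding RNAs, 235 (19.9%) lay above 0 at an unadjusted p under 0.05 after length adjustment and 13 (1.1%) below, with a median interaction of 0.25. Of 490 transcribed pseudogenes, 129 (26.3%) lay above and 7 (1.4%) below, with a median of 0.27. Of 14050 protein-coding genes, 634 (4.5%) lay above and 636 (4.5%) below, with a median of -0.01. Without offsets the median was 0.16 for long noncoding RNAs, with 17.2% above and 2.4% below at that p. For transcribed pseudogenes it was 0.21, with 24.5% and 2.9%, and for protein-coding genes -0.01, with 6.7% and 8.5%. The median length-adjusted log2 difference of long noncoding RNAs was -0.20 in TPL vs Ctrl, -0.21 in DAC vs Ctrl and -0.09 in DACTPL vs Ctrl, comparisons that share the Ctrl libraries. Library by library their median deviation was 0.17, 0.12 and 0.11 (Ctrl), -0.08, -0.11 and 0.04 (TPL), -0.12, -0.09 and 0.01 (DAC) and -0.02, 0.10 and 0.01 (DACTPL). TPL 3, DAC 3 and DACTPL 2 were the highest of their groups, and all 3 also had the sign of Ctrl for the length trend. The part of that shift in the class medians was not tested. Of the 83 length-adjusted calls made without TPL replicate 3, 17 were long noncoding RNAs, 14 were transcribed pseudogenes and 47 were protein-coding.

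**Figure D4:**
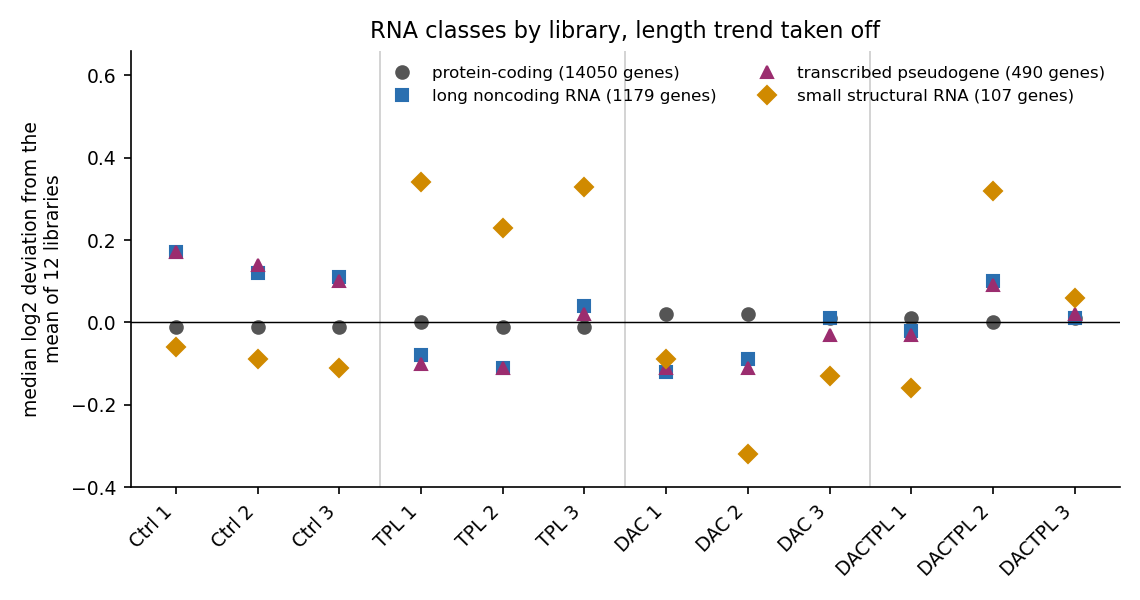
Median log2 deviation from the mean of 12 libraries (vertical axis) of 4 RNA classes in each library (horizontal axis), with the length trend taken off. Long noncoding RNAs and transcribed pseudogenes are at 0.10 to 0.17 (Ctrl), -0.11 to 0.04 (TPL) and -0.12 to 0.01 (DAC), and DACTPL 2 stands at 0.10 and 0.09.

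Of the tested genes that were silent without decitabine, all but 1 had counts in both groups that had it. Such genes passed the filter on low counts only through libraries with decitabine, so their counts there are a description. Genes that stayed silent were not tested. A total of 58 tested genes had at most 3 counts over the 6 libraries without decitabine, and 35 of them had none. Of the 58, 20 were on the list of cancer-testis genes, whose expression is otherwise limited largely to germ cells and which promoter methylation keeps silent in many other tissues. For such genes the interaction cannot be fitted in a useful way, so DACTPL was set against DAC. Of the 58, 40 were higher in DACTPL, against 53% of all genes tested, and the median log2 difference was 0.17. EdgeR called 0, with 9 at an unadjusted p under 0.05, 7 of them higher. Over all 15890 genes tested, 2419 were at that p for DACTPL vs DAC, so the 9 were near the share of all genes. Some near-identical copies, such as GAGE12C, GAGE12E and GAGE12G, had the same counts. With 1 entry kept of each such set, 37 of 55 were higher, and 5 of 7 at that p. The exception was the readthrough EEF1E1-BLOC1S5, named after its values were seen, with 325 counts over the DAC libraries and 0 in DACTPL (unadjusted p = 0.0038). Promoters of 2 of them and of the interferon-responsive IFI27 are printed with CG in capitals (RefSeq, GRCh38.p14, chrX:30215313-30215612 on the plus strand, chr12:54473553-54473852 on the minus strand and chr14:94110486-94110785 on the plus strand), to set a strongly silenced gene beside one that was expressed at a low level without drug.
MAGEB2: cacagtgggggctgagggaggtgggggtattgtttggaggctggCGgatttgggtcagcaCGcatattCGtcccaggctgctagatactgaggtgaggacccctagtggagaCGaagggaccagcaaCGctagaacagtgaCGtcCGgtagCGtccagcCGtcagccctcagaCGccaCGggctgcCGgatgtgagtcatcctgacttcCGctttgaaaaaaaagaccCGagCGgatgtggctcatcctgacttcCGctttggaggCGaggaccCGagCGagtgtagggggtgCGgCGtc
GTSF1: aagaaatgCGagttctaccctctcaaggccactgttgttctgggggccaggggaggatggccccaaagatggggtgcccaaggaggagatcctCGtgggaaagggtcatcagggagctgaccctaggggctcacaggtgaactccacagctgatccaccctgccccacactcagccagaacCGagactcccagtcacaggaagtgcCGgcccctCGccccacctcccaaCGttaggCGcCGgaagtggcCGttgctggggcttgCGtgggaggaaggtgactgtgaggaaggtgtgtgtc
IFI27: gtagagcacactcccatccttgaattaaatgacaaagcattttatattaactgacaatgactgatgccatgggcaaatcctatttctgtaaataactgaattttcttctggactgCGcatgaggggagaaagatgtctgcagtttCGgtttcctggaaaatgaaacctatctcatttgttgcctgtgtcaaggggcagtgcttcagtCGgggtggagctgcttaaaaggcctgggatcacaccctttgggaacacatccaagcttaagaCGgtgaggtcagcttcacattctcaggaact
They held 21, 10 and 4 CG, and at least as many were held by 39.5%, 56.4% and 75.5% of the 35116 promoters. MAGEB2, a cancer-testis antigen, had 0 counts in Ctrl and TPL, and 6.24, 6.61 and 4.97 CPM in DAC against 6.70, 6.29 and 5.02 in DACTPL. GTSF1, a zinc finger protein of the piRNA pathway of germ cells, had 0 counts in Ctrl and TPL, and 9.12, 8.23 and 6.97 CPM in DAC against 8.26, 6.85 and 6.82 in DACTPL. The DAC and DACTPL libraries overlapped for both genes, with log2 differences of 0.02 (adjusted p = 0.947) and -0.14 (adjusted p = 0.585). GAGE2D, one of a cluster of near-identical cancer-testis genes on chromosome X, averaged 9.05 CPM in DAC and 9.57 in DACTPL, and reads of this family can be divided between its copies. Of 28 tested cancer-testis genes, 22 rose for the mean decitabine effect, where 17.0% of all genes were called. Since 20 of the 28 passed the filter on low counts only through libraries with decitabine, their rise is a description, and the interaction could be tested in a useful way for the other 8 alone.

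Some genes with a large decitabine response stood numerically higher in the combination. H19, an imprinted long noncoding RNA, was at 0.81, 0.90 and 0.96 CPM (Ctrl), 0.70, 0.40 and 0.85 (TPL), 19, 18.9 and 21.3 (DAC) and 27.2, 26.5 and 26.7 (DACTPL). All DACTPL libraries were above all DAC libraries, and the length-adjusted log2 interaction was 0.95 (95% interval 0.44 to 1.47, adjusted p = 0.225, edgeR). Without TPL replicate 3 it was called, at 1.22 (adjusted p = 0.0479), and at 1.16 without offsets (adjusted p = 0.0203). IFI27, a mitochondrial protein induced by type I interferon, was at 0.61, 0.50 and 0.50 CPM (Ctrl), 0.43, 0.60 and 0.56 (TPL), 9.62, 9.49 and 10.5 (DAC) and 19.8, 16.6 and 14.4 (DACTPL). Its DACTPL libraries were above all DAC libraries, it was called in DACTPL vs DAC (log2 difference 0.78, adjusted p = 0.0279), and its length-adjusted interaction was 1.08 (95% interval 0.49 to 1.66, adjusted p = 0.241). CPS1, the mitochondrial enzyme that starts the urea cycle, averaged 0.288, 0.242, 3.97 and 7.91 CPM in Ctrl, TPL, DAC and DACTPL. It was called in DACTPL vs DAC (0.99, adjusted p = 0.0279) with an interaction of 1.06 (adjusted p = 0.347). EHF, an epithelial ETS transcription factor, averaged 0.176, 0.114, 2.23 and 3.82 CPM, with an interaction of 1.33 and a wide interval of 0.09 to 2.58 (adjusted p = 0.439). CPS1 and EHF were chosen after their values were seen. OASL, an antiviral protein of the oligoadenylate synthetase family and also chosen after its values were seen, averaged 13.2, 18.1, 84.7 and 91.6 CPM, with an interaction of -0.27 (adjusted p = 0.570).

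**Figure D5:**
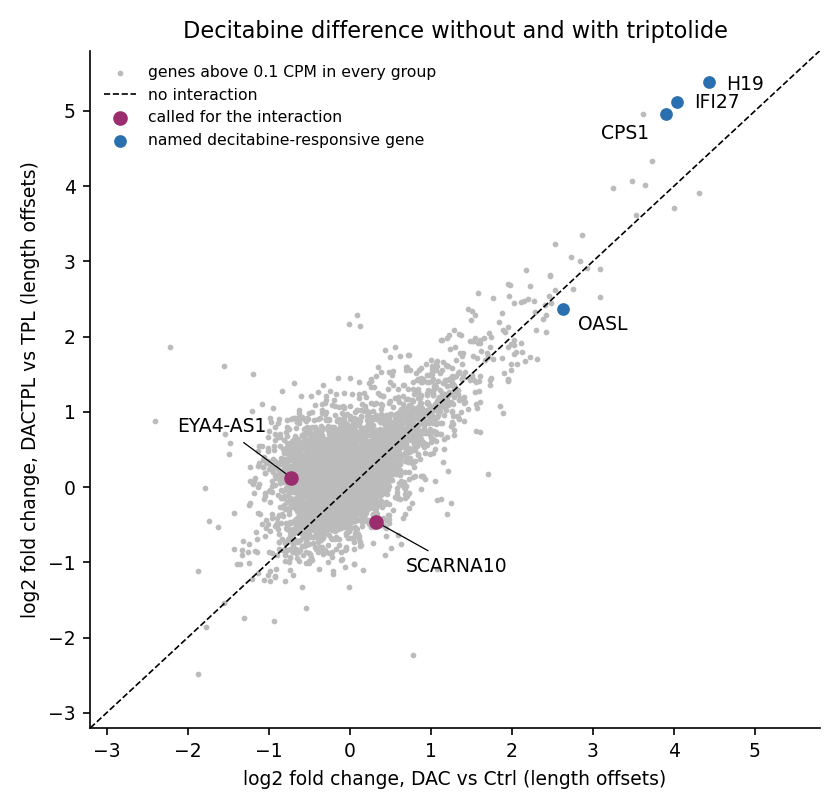
Length-adjusted log2 fold change of DACTPL vs TPL (vertical axis) against that of DAC vs Ctrl (horizontal axis) for 15725 genes above 0.1 CPM in every group, with a dashed line where the interaction is 0. EYA4-AS1 lies above the line at -0.72 and 0.12, SCARNA10 lies below it at 0.33 and -0.46, and H19, IFI27 and CPS1 lie above it at 3.90 or more.

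All genes that the mean decitabine effect called higher by 2-fold or more at 1 CPM or more were taken next. The weights of that contrast are orthogonal to those of the interaction. The estimates need not be uncorrelated where the 4 group means differ in precision, and depth ran from 26.4 to 47 M counts. Whether this choice of genes shifted their interaction was not tested. Of these genes, 141 of 224 (62.9%) had an interaction above 0 without offsets and 149 of 225 (66.2%) after length adjustment. Over all genes tested the shares were 50.1% and 49.4%. The median interaction of these genes was 0.13 and 0.14. Of those with at least 10 counts in every group, 123 of 198 (62.1%) lay above 0 without offsets and 131 of 199 (65.8%) after length adjustment. Of the 18 genes lower by 2-fold or more, 7 lay above 0 in both fits. TMC4, a channel-like membrane protein, averaged 12.5, 18.9, 5.49 and 8.04 CPM, fell by 1.21 for the mean decitabine effect (adjusted p = 0.00111), and had a length-adjusted interaction of -0.02 (95% interval -0.89 to 0.85). IL1RL1, the receptor of interleukin-33, averaged 18.4, 16.4, 8.71 and 7.07 CPM, fell by 1.15 (adjusted p = 0.000943), and had an interaction of -0.17 (95% interval -0.97 to 0.63). Among 61 tested interferon-stimulated genes 50 rose for the mean decitabine effect after length adjustment, where 18.9% of all genes were called, and the median interaction was 0.03, with 34 above 0. The test called 0 of them for the interaction and DESeq2 0, with 2 above and 1 below 0 at an unadjusted p under 0.05. ISG15, a ubiquitin-like protein, averaged 15.9, 20.0, 58.5 and 67.0 CPM with an interaction of 0.13 (95% interval -0.31 to 0.57). IFI6, another interferon-induced protein, averaged 7.12, 10.1, 23.9 and 36.7 CPM with 0.34 (SE 0.38). ISG15 and IFI6 were chosen after their values were seen. For the mean decitabine effect after length adjustment, 11.4% of all genes were called higher and 7.48% lower. Of 22 MHC class I genes, 9 rose for that effect and the median interaction was -0.05, with 0 called by either tool and 2 below 0 at that p. Of 35 cholesterol synthesis and SREBP target genes, 14 fell and 2 rose for that effect. Their median interaction was 0.05, with 27 of 35 above 0 (21 without offsets), where 49.4% of all genes were (50.1% without offsets). Of the 35, 0 were called by either tool and 0 were at that p.

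The remaining genes called in DACTPL vs DAC, 5 of 15890 (0.0315%), were MAPK4, DUSP5 and TAGLN (chosen after its values were seen) beside IFI27 and CPS1. MAPK4, an atypical MAP kinase, was at 1.09, 0.90 and 1.27 CPM (Ctrl), 2.01, 1.5 and 2.00 (TPL), 2.40, 2.34 and 2.91 (DAC) and 5.32, 4.98 and 4.99 (DACTPL). The 4 groups did not overlap, with log2 differences of 0.73 for TPL vs Ctrl, 1.21 for DAC vs Ctrl and an interaction of 0.27 (95% interval -0.22 to 0.75, adjusted p = 0.581, edgeR). DUSP5, a phosphatase that turns off ERK in the nucleus, averaged 89.7, 68.4, 82.4 and 60.6 CPM. It fell by 0.39 on the log2 scale in TPL vs Ctrl and by 0.44 in DACTPL vs DAC, with an interaction of -0.05 (95% interval -0.24 to 0.13). TAGLN, an actin-binding protein of smooth muscle, was at 6.29, 7.03 and 7.36 CPM (Ctrl), 7.12, 6.38 and 6.18 (TPL), 10.5, 9.91 and 9.27 (DAC) and 6.09, 6.07 and 6.75 (DACTPL). The DAC libraries alone lay above the rest, and the length-adjusted interaction was -0.40 (95% interval -0.67 to -0.12, adjusted p = 0.323). Without TPL replicate 3 it was called without offsets (adjusted p = 0.0244).

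No gene named for its mean triptolide effect was called for the interaction by edgeR with all libraries. Values here are without offsets unless stated. HOPX, a homeodomain protein that does not bind DNA, averaged 0.405, 0.992, 0.678 and 1.37 CPM in Ctrl, TPL, DAC and DACTPL, rose by 1.15 for the mean triptolide effect (adjusted p = 0.00777, edgeR), and had an interaction of -0.26 (95% interval -0.98 to 0.47). S100A9, a calcium-binding protein of myeloid and stressed epithelial cells, averaged 15.8, 27.7, 7.94 and 15.8 CPM. It rose by 0.90 with triptolide (adjusted p = 0.00777) and fell by 0.90 with decitabine (adjusted p = 0.000375). Its interaction was 0.17 without offsets (95% interval -0.37 to 0.71) and 0.45 after length adjustment (95% interval -0.24 to 1.14). Without the 4 libraries numbered 3 it was called after length adjustment, at 0.73 (adjusted p = 0.00408, edgeR). PEAR1, a receptor of platelets and endothelium, fell by 0.72 with triptolide (adjusted p = 0.0318), with an interaction of 0.14 (95% interval -0.48 to 0.75). Its triptolide call was lost in 8 of the 12 fits that left out 1 library, and kept without Ctrl 3, TPL 1, TPL 3 or DAC 3. WNT10B, a secreted WNT ligand, was at 1.04, 0.90 and 1.04 CPM (Ctrl), 0.39, 0.36 and 0.53 (TPL), 1.37, 1.26 and 1.04 (DAC) and 0.91, 0.78 and 1.06 (DACTPL). The TPL libraries alone lay below the rest, and the interaction was 0.80 (95% interval 0.17 to 1.44, adjusted p = 0.233).

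Genes of the drugs' own targets and metabolism were not called for the interaction by edgeR with all libraries. DCTPP1 was at 30.7, 32.3 and 27.3 CPM (Ctrl), 40.9, 40.6 and 27.4 (TPL), 41.1, 39.8 and 31.7 (DAC) and 34.1, 34.2 and 30.9 (DACTPL). TPL 3 lay within the range of Ctrl and apart from TPL 1 and TPL 2, and the interaction was -0.45 without offsets (adjusted p = 0.299) and -0.25 after length adjustment (95% interval -0.59 to 0.09, adjusted p = 0.606, edgeR). Without TPL replicate 3 DCTPP1 was called without offsets, at -0.64 (adjusted p = 0.0246). Without the 4 libraries numbered 3 it was called after length adjustment, at -0.38 (adjusted p = 0.0274). ERCC3, the target of triptolide, was between 36.4 and 42.2 CPM in all libraries, with a length-adjusted interaction of -0.13 (95% interval -0.28 to 0.02). DNMT1, the maintenance methyltransferase trapped by decitabine, averaged 235, 215, 235 and 237 CPM, with 0.04 (95% interval -0.10 to 0.17). The de novo methyltransferase DNMT3B rose by 0.50 for the mean decitabine effect (adjusted p = 3.81e-05), with an interaction of 0.04 (95% interval -0.21 to 0.28), and DNMT3A had 0.02 (95% interval -0.26 to 0.30). DCK, the kinase that activates decitabine, averaged 28.1, 28.1, 28.6 and 28.4 CPM, with 0.02 (95% interval -0.36 to 0.40). Of 28 nucleoside handling genes and 26 genes of TFIIH and RNA polymerase II, 0 were called in either fit by edgeR, with 2 and 3 below 0 and 0 above 0 at an unadjusted p under 0.05 after length adjustment and 0 called by DESeq2. ABCG2, an efflux transporter, had an interaction of -0.38 (95% interval -0.60 to -0.17, adjusted p = 0.259), with means of 14.8, 17.3, 13.1 and 12.3 CPM. Without the libraries numbered 3 it was called, at -0.44 (adjusted p = 0.0367).

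For MKI67 and POLR2A, long coding genes, the libraries of a group differed widely. MKI67, a marker of dividing cells, was at 252, 590 and 413 CPM in DACTPL, against 280 to 390 in Ctrl, 214 to 296 in TPL and 238 to 334 in DAC. POLR2A, the largest subunit of RNA polymerase II, was at 45.7, 195 and 105 CPM in DACTPL, against 60.4 to 77.0 in Ctrl, 39.2 to 95.3 in TPL and 41.5 to 88.3 in DAC. DACTPL 2 was the highest of all 12 libraries for both, DACTPL 3 was the next highest, and DACTPL 1 lay within the range of the other groups. Their length-adjusted interactions were 0.69 (SE 0.29, adjusted p = 0.439) and 1.03 (SE 0.68, adjusted p = 0.632). Over 46 proliferation genes the median was -0.03, with 1 above and 0 below 0 at an unadjusted p under 0.05.

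Further lists are given beside the median of all genes, which was 0.00 in both fits. After length adjustment the median interaction was -0.02 for 35 epithelial genes and 0.005 for 27 mesenchymal genes, and -0.01 for 58 DNA repair genes and for 33 short-lived transcripts, whose RNAs turn over fast. It was -0.10 for 38 genes of the integrated stress and unfolded protein responses, -0.06 for 30 heat shock genes, -0.04 for 30 p53 targets and -0.04 for 38 hypoxia and glycolysis genes. It was 0.04 for 25 NF-kappaB and cytokine genes, 0.03 for 26 imprinted genes, 0.04 for 32 genes hypermethylated in prostate cancer and 0.02 for 25 genes of the DNA methylation machinery. Among 33 germline genes it was 0.17, with 25 above 0, where 49.4% of all genes tested were above 0. Of these 25, 2 had an unadjusted p under 0.05. The 33 include genes nearly silent without decitabine, such as GTSF1 and GPAT2, whose interaction cannot be fitted in a useful way. Their signs therefore carry no weight. Among 7 metallothioneins, small metal-binding proteins, the median interaction was 0.34, with 6 above 0. MT1M averaged 2.00, 2.16, 3.34 and 3.70 CPM in Ctrl, TPL, DAC and DACTPL, with an interaction of 0.34 (95% interval -0.11 to 0.79, adjusted p = 0.597, edgeR). EdgeR called 0 members of these lists in either fit, while DESeq2 called 1 p53 target without offsets, 1 metallothionein after length adjustment and 1 NF-kappaB and cytokine gene in each fit.

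The precision of the interaction is described by its SE and its interval. Among 14210 genes at 1 CPM or more in their highest group, the median SE of the log2 interaction was 0.13 without offsets and 0.12 after length adjustment. The 95% interval of the adjusted interaction lay within 2-fold in either direction for 91.0% of them and within 1.5-fold for 76.0%. The middle 90% of the adjusted values ran from -0.24 to 0.53. The smallest departure detectable at this depth and number of libraries is not given here. A gene that was not called is not shown to be additive.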

How the data were processed

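RNA of 12 DU145 libraries (total RNA, a stranded kit and paired reads, per the labels' protocols) was analysed from a table of the whole series. The authors' deposited expected counts come from RSEM 1.2.09 and the build hg19 (per the submitters' processing notes) and were rounded to whole numbers; 64.3% of the values lay within 0.005 of one. The deposited TPM values gave relative gene length (expected count over TPM) and one alternative. The aligner, the annotation and the strand setting are not given in the sources used here. Depth was 26.4 to 47 M counts per library.

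Tests used edgeR 4.0.16 under R 4.3.3 (filterByExpr, TMM, robust quasi-likelihood fit of 4 group means, Benjamini-Hochberg adjustment over 15890 genes, two-sided, threshold 0.05). For the length-adjusted fit, the lowess trend (span 0.3) of log2 CPM deviation on log2 relative length over coding genes was put into the offsets of each library; shorter or longer genes than the central range took its end values. CPM and intervals come from these fits. Alternatives used DESeq2 1.42.0, limma 3.58.1 and others named in the closing section. The procedure was tested on simulated data. Classes and names came from RefSeq and GENCODE 29 tables of another build, so hg19 coordinates are not used here. The table listed 26341 genes, of which 5761 were at 0 throughout, and 37 tested entries repeated another.

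The lists and members were chosen with earlier results of these data known. Named were genes called for the interaction, the 6 highest and 6 lowest by mean decitabine effect and the 4 highest and 4 lowest by mean triptolide effect at 1 CPM or more, up to 2 members of each list by size of the mean decitabine effect (or up to 3 called for the interaction), and the drug-related genes DCTPP1, DNMT1, DNMT3A, DNMT3B, DCK and ERCC3; the text prints a selection and says where a gene was chosen otherwise.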

Additional observations from a re-analysis of the deposited data

Results flagged for a closer look

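The interaction term itself, tested by edgeR with adjustment over all 15890 genes, singled out EYA4-AS1, whose log2 decitabine difference was 0.85 higher with triptolide than without (0.84 after length adjustment), and SCARNA10, where it was 0.79 lower after length adjustment. The entry U85 gave the same -0.79 as SCARNA10 because it repeats its counts, so it is no second case.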

How the results depend on the processing

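Interaction calls, 1 without offsets and 3 after length adjustment, moved with the test. They were 120 and 66 with DESeq2, 8 and 12 without a filter on low counts, 4335 and 1938 with voom and sample weights, 2049 and 945 without the 4 libraries numbered 3, and 5098 and 5662 with limma on log2(TPM + 1) or 5103 and 5673 on log2(TPM + 0.1). TPM scaling moved the median interaction of all genes to 0.24 and 0.31 without offsets, and 5077 of 5098 calls were then above 0, so calls on TPM are relative to another zero. With a linear trend there were 3 calls, with small structural RNAs left out 1 after length adjustment, and with the length slope as a covariate 1, which was SNORD17 below 0 and not EYA4-AS1. RLE size factors, a stricter filter and a fit without robust estimation gave 1 and 3. Leaving out 1 library gave 0 to 950 calls and, after length adjustment, 0 to 83. With the replicate number as a block there was 1 call, and 14 with length offsets (11 above 0); same-numbered libraries of different groups had correlations of -0.31 to 0.64 over 18 pairs, 14 of them over 0.1 (median 0.25, against -0.15 over 36 differently numbered pairs). Not every pair passed 0.1, since DACTPL 2 correlated negatively with its number in the 3 other groups and DACTPL 1 with Ctrl 1, so the numbers are not taken as pairs. CCNL2, GOLGA8B, AHSA2, CCDC144A and RPPH1 were among the 14, at adjusted p from 0.0247 to 0.0421. The mean decitabine effect (2704 calls) gave 4905 with voom and 4547 with the slope covariate, and 2095 to 3246 leaving out 1 library. The mean triptolide effect (202 calls, 146 higher) gave 855 with DESeq2, 3556 with voom, 8490 and 8468 on TPM (100 and 93 higher), 2026 without the libraries numbered 3, 3354 with the slope covariate, 1881 with the replicate block, 2312 with the block and length offsets, and 33 to 704 leaving out 1 library. The causes were not tested. On TPM with pseudocounts 1 and 0.1, CD68 turned to 0.32 and 0.33, and after length adjustment DUSP5 to 0.30 and 0.30 and TDG to 0.29 and 0.31, none of them called without that scaling. For single genes and lists, 3717 of the other values stayed on the same side of the threshold, 144 became called and 103 lost the call. Direction was compared only where a call was made. Values that were never called could change sign within the 3717, as for POLR2A, which ran from -0.71 to 2.08 without offsets. The slope covariate was not run on top of length offsets. What limits small departures was not tested beyond these settings. No interval is given for genes with 3 counts or fewer in a group.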
